A study of Mus musculus with 6 samples.

Results

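The immediate early transcription factor genes Egr1, Egr2, Egr3, Nr4a1, Nr4a2, Nr4a3, Fos, Fosb, Jun and Junb were examined in early T cell progenitors of the fetal thymus. They were taken by gene symbol from the rows of 1 table with 22609 genes, and all 10 were found and tested. The dKO cells came from mice of genotype E2Afl/flHEBfl/flIL7RCre (double knockout, dKO, 3 libraries), in which floxed alleles of the E protein genes E2A and HEB are deleted by a Cre recombinase driven from the Il7r locus. The control cells came from wild type mice (control, 3 libraries). All animals were of strain C57BL/6, and the gestational age is not given in the sources used here. The sort in both groups took CD44+ and c-Kit+ cells that lacked CD25, CD4, CD8 and lineage markers. The dKO cells alone were also gated on YFP, so the genotype and that gate cannot be told apart. Whether replicate libraries stem from different animals is not stated, so the p-values speak only of variation among these 6 libraries, part of which could be technical.

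Immediate early genes are transcribed within minutes of a signal by factors already present in the cell, without new protein synthesis. Egr proteins are zinc finger factors induced largely through the Ras and ERK kinases acting on serum response factor. In thymocytes Egr factors follow pre-T cell receptor signalling and induce Id3, an antagonist of E proteins. Nr4a proteins are orphan nuclear receptors whose transcription tracks antigen receptor and calcium signals in T cells. Fos and Jun proteins pair to form AP-1, which binds cytokine and activation genes together with partners such as NFAT and Batf.

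The start regions of some of the members are shown because each holds the letters TGACG, part of an element that can induce early genes. Some also hold a serum response factor box, an EGR-type sequence or an E-box, the sequence to which E proteins bind. Start regions from RefSeq (GRCm38.p6) were used for 8 of the 10 members, with 12 annotated starts, and those of Egr1 and Egr3 were not analysed here. Each of the following is the 200 bases before an annotated start, read 5′ to 3′ on the strand of the gene. Capitals mark the letters TGACG, the core of the cyclic AMP response element, on either strand, together with any serum response factor (CArG) box, any EGR-type sequence GCGNGGGCG and any E-box of the letters CAGGTG or CAGCTG. For Egr2, the third of its 5 annotated starts is shown, at chr10:67537669-67537868 on the plus strand. Nr4a1 is at chr15:101266646-101266845 on the plus strand, Nr4a2 at chr2:57124004-57124203 on the minus strand, Fos at chr12:85473690-85473889 on the plus strand, Fosb at chr7:19310046-19310245 on the minus strand and Junb at chr8:84978749-84978948 on the minus strand.
Egr2: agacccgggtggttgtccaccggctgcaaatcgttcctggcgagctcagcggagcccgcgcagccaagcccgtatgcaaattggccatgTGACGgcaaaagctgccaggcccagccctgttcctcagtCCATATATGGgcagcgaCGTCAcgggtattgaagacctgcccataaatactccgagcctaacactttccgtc
Nr4a1: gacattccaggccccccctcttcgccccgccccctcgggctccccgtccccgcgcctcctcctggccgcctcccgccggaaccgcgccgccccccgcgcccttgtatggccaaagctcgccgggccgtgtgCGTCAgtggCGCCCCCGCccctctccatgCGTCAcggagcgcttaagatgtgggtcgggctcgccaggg
Nr4a2: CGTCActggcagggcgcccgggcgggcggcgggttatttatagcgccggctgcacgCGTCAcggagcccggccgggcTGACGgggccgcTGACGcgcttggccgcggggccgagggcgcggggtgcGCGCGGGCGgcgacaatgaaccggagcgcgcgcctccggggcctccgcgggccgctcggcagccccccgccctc
Fos: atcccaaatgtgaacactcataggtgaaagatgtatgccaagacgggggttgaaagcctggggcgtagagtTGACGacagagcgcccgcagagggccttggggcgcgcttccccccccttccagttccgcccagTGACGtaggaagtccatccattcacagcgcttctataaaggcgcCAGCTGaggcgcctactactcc
Fosb: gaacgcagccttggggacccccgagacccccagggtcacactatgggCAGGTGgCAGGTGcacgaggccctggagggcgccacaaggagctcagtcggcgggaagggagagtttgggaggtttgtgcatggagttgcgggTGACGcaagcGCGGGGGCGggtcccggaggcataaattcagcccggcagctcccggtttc
Junb: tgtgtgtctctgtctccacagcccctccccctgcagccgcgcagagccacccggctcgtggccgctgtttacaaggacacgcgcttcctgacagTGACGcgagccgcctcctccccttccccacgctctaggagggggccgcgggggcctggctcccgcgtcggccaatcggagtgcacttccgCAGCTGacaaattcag

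The window searched was 250 bases before to 50 after each start, on both strands. The letters TGACG lay in a window of 7 of the 8 members and in 9 of their 12 windows, some of which overlap. Of all 32851 promoter windows of that length, 20.8% held them. A serum response factor box lay in 4 of the 12 windows, against 1.63% of all windows. These were all of 1 member, Egr2, whose starts 3 to 5 share 1 copy and whose start 2 has another. The EGR-type sequence GCGNGGGCG lay in 3 of the 12 windows, those of Nr4a1, Nr4a2 and Fosb, against 5.55% of all windows. The E-box CAGCTG began 22 bases before the start of Fos and 16 bases before that of Junb, and 16.3% of all windows held it. The E-box CAGGTG was found in the window of Fosb alone, in 2 copies, against 20.2% of all windows. The full element TGACGTCA, the AP-1 sequence TGANTCA and the Nr4a sequence AAAGGTCA were in none of the members' windows, and 1.79%, 7.81% and 1.51% of all windows held them. These are letter matches and not sites shown to be bound.

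All 10 members had a higher mean in the dKO group than in the control group, and 7 passed the authors' test at an adjusted p under 0.05. Those 7 were Egr1, Egr2, Egr3, Nr4a1, Nr4a2, Fos and Junb. None fell in the authors' DESeq test, nor at an unadjusted p under 0.05, since all means were above control. Among all 16241 tested genes, 29% were called, with 15.1% higher in dKO and 13.8% lower. The share called higher grew with the mean over both groups. It was 0.538% among genes with a mean under 10, where 0 of 1 member passed, and 9.87% at 10 to 100, where 1 of 2 did. It was 17.2% at 100 to 1000, where 4 of 5 members passed, and 25.1% at 1000 or more, where 2 of 2 did. Called rises of at least 4-fold were found for 4 members, Egr1, Egr2, Egr3 and Nr4a1, against 3.09% of all tested genes. With Nr4a3 at its lower bound, the median log2 change of the members was 2.09, against -0.01 over all tested genes. The values are mean normalised counts per group as deposited by the authors. They are not divided by transcript length, so levels are not compared between genes. The table holds no spread between libraries, so the interval given for each member is the 95% interval implied by the authors' p-value on a normal scale, an approximation.

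**Figure D1:**
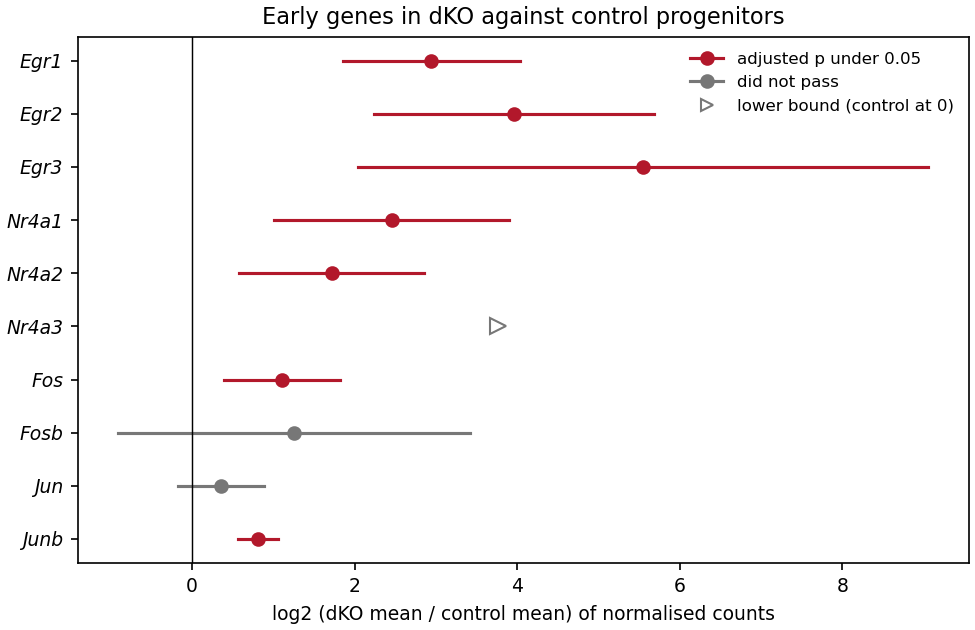
Log2 ratio of the dKO mean to the control mean of normalised counts for the 10 early genes; points are the ratios, lines the 95% intervals implied by the authors' p-values, and the open triangle for Nr4a3 a lower bound of 3.77 because control is at 0. The Egr genes lie between 2.94 and 5.55, and the intervals of Fosb and Jun include 0.

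Reads per library could be worked out for some members, because a group mean is a sum of whole reads, each worth a fixed amount that depends on the size factor of its library. Egr3, Nr4a2, Nr4a3, Fos and Fosb each had exactly 1 solution in both groups, and Egr2 had 1 in control and 2 in dKO. For Egr1, Nr4a1, Jun and Junb the solutions were several, so their values are given as group means. The libraries are named by their size factors, 1.16, 1.08 and 1.04 in dKO and 1.02, 0.952 and 0.823 in control, since they cannot be matched to the replicate numbers of the labels. Depth was about 24300000 to 27000000 reads per dKO library and 18200000 to 22600000 per control library, estimated from the totals of the group means and the size factors.

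The Egr genes rose together, and all 3 of 3 passed. Egr2, which with Egr3 restrains T cell receptor responses, had 173 normalised counts in the dKO library of size factor 1.04, and either 170 and 712 or 517 and 366 in those of size factors 1.16 and 1.08. In control it had 9.76, 17.9 and 40.1 in the libraries of size factors 1.02, 0.952 and 0.823. Every dKO library was above every control library under both solutions. The authors' deposited table gave Egr2 means of 352 in dKO and 22.6 in control, 15.6-fold higher in dKO with an implied interval of 4.73 to 51.5 (authors' DESeq adjusted p = 5.46e-05). With the dKO library of size factor 1.08 left out, it was 7.62-fold or 15.3-fold higher by solution. With the control library of size factor 0.823 left out, it was 25.5-fold higher.

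Egr3, the Egr gene linked in thymocytes to proliferation after β-selection, had 185, 85.6 and 24.1 normalised counts in the dKO libraries of size factors 1.16, 1.08 and 1.04. In control it had 0, 6.30 and 0 normalised counts in the libraries of size factors 1.02, 0.952 and 0.823. The groups did not overlap, yet the dKO libraries ranged widely and all 6 control reads lay in 1 library. The means in the authors' deposited table were 98.3 in dKO and 2.10 in control, 46.8-fold higher in dKO with an implied interval of 4.11 to 533 (authors' DESeq adjusted p = 0.00908). Egr3 was 26.1-fold higher when the dKO library of size factor 1.16 was left out. Without the control library of size factor 1.02 or that of 0.823 it was 31.2-fold, and without that of 0.952 control was at 0 and the rise was at least 80.9-fold, against a floor of 3 reads over the group.

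Egr1, the member most widely used as a sign of ERK activity, had means of 1228 in dKO and 160.0 in control in the authors' deposited table. In the authors' deposited table this was 7.68-fold higher in dKO with an implied interval of 3.61 to 16.3 (authors' DESeq adjusted p = 1.37e-06). Its control reads had 2 solutions, with 163, 125 and 192 normalised counts or 408, 22.1 and 49.8 in the libraries of size factors 1.02, 0.952 and 0.823. Leaving out the first of these gave 7.75-fold or 34.2-fold by solution, and leaving out either other one gave 5.37-fold to 8.53-fold. The 3 rises of the Egr genes have intervals that overlap one another, so the order of their folds is not resolved.

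**Figure D2:**
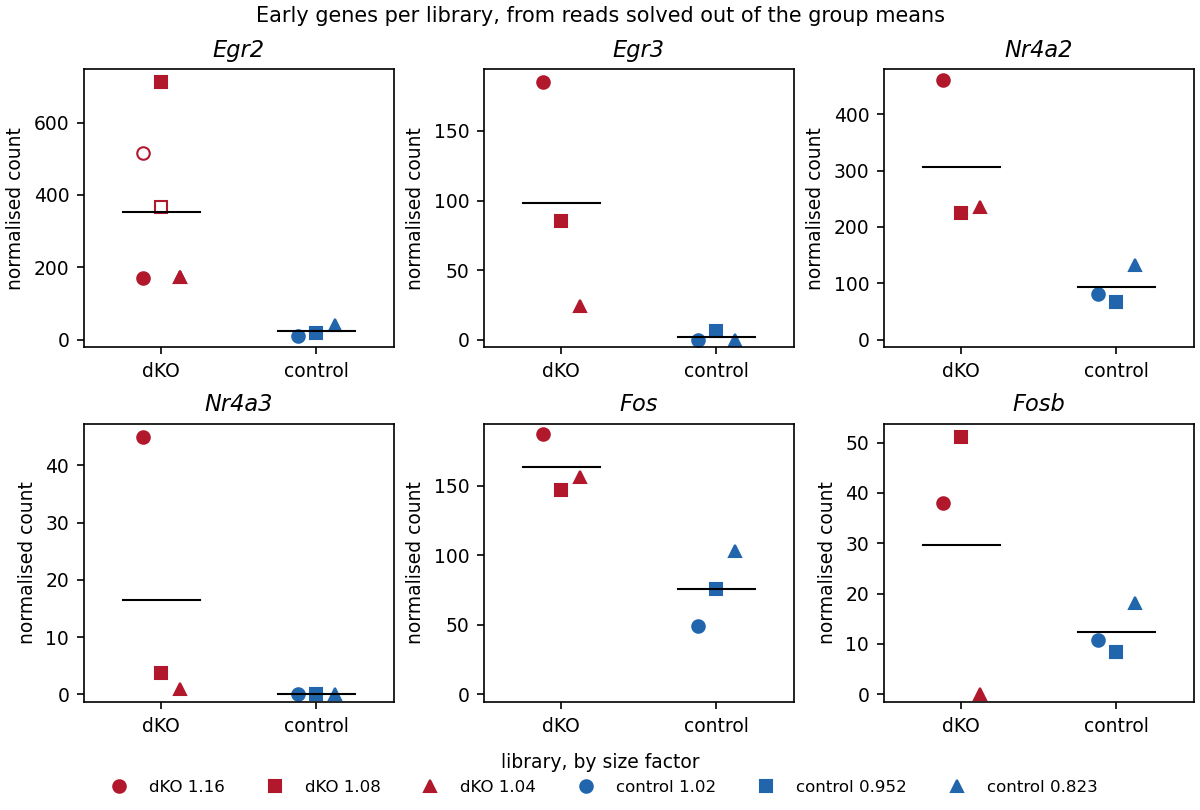
Normalised counts per library for 6 early genes, solved from the group means; dKO libraries are red on the left, control libraries blue on the right, marker shape gives the library by its size factor, and black lines are the group means. Open markers for Egr2 are its second dKO solution; dKO lies above control for Egr2, Egr3, Nr4a2, Nr4a3 and Fos, and 1 dKO library of Fosb is at 0.

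Of the Nr4a genes, Nr4a1 and Nr4a2 rose and Nr4a3 did not pass. Nr4a2, which encodes Nurr1, had 460, 225 and 236 normalised counts in the dKO libraries of size factors 1.16, 1.08 and 1.04. Control had 80.0, 67.2 and 132 in those of size factors 1.02, 0.952 and 0.823. The lowest dKO library was above the highest control library. In the authors' deposited table its means were 307 in dKO and 93.2 in control, 3.29-fold higher in dKO with an implied interval of 1.496 to 7.26 (authors' DESeq adjusted p = 0.0134).

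Nr4a1, which encodes Nur77, a common reporter of antigen receptor signals, had means of 3045 in dKO and 555 in control in the authors' deposited table. It was 5.48-fold higher in dKO in the authors' deposited table, with an implied interval of 2.01 to 14.95 (authors' DESeq adjusted p = 0.00456). Its control reads had 6 solutions, and leaving out single control libraries gave 3.87-fold to 30.1-fold over them, with the highest value without that of size factor 1.02. Nr4a3, which encodes Nor1, had 52, 4 and 1 reads in the dKO libraries of size factors 1.16, 1.08 and 1.04, and 0 reads in each control library. Its dKO mean of 16.6 in the authors' deposited table was at least 13.6-fold above the control floor of 1.21, and it did not pass (authors' DESeq adjusted p = 0.225). A single library held nearly all of these reads, and without it the bound was 1.93-fold.

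Of the AP-1 genes, Fos and Junb rose and Fosb and Jun did not pass, with ratios from 1.28 for Jun to 2.39 for Fosb. Fos, the defining early gene, had 188, 147 and 156 normalised counts in the dKO libraries of size factors 1.16, 1.08 and 1.04. Control libraries had 48.8, 75.6 and 103 at size factors 1.02, 0.952 and 0.823. All dKO libraries were above all control libraries. The authors' deposited table gave Fos means of 164 in dKO and 75.9 in control, 2.16-fold higher in dKO with an implied interval of 1.32 to 3.53 (authors' DESeq adjusted p = 0.0103).

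Fosb, a paralogue of Fos with a more restricted induction, had 38.1, 51.2 and 0 normalised counts in the dKO libraries of size factors 1.16, 1.08 and 1.04, and 10.7, 8.40 and 18.2 in control at 1.02, 0.952 and 0.823. The dKO library of size factor 1.04 was below all control libraries and the others were above them, so the groups overlapped. Its means of 29.7 in dKO and 12.5 in control in the authors' deposited table did not pass, with an implied interval of 0.533 to 10.7 for the ratio (authors' DESeq adjusted p = 0.48).

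Junb, a Jun protein with a part in type 2 T helper cytokine expression, had means of 2737 in dKO and 1558 in control in the authors' deposited table. It was 1.76-fold higher in dKO in the authors' deposited table, with an implied interval of 1.485 to 2.08, the narrowest of the 9 members that have one (authors' DESeq adjusted p = 8.53e-10). Jun had means of 739 in dKO and 579 in control in the authors' deposited table, short of the threshold, with an implied interval of 0.884 to 1.84 for the ratio (authors' DESeq adjusted p = 0.392). Under every solution of its reads the dKO and control libraries of Jun overlapped. Leaving out single libraries put Jun at 0.977 to 1.66 of control over its 3 dKO solutions and at 0.885 to 3.47 of control over its 6 control solutions, so its direction depended on the solution. Values below control came without the dKO library of size factor 1.16 and without the control library of 1.02 or of 0.952, and the highest value without that of 1.02.

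For genes with a mean of at most 400 in each group, all dKO libraries lay above all control libraries for 12.1% of the 7255 genes that could be decided, and below them for 11%. Of the 6 members in that range, Egr2, Egr3, Nr4a2, Nr4a3 and Fos had all dKO libraries above control, Nr4a3 on few reads, and Fosb did not. The share over all genes includes those with a mean under 10 and was not split by the mean. The dKO library of size factor 1.16 was the highest dKO library for Egr3, Nr4a2, Nr4a3 and Fos, and not for Fosb. Among control libraries, that of size factor 0.823 was the highest for Egr2, Nr4a2, Fos and Fosb, and had no reads of Egr3.

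**Figure D3:**
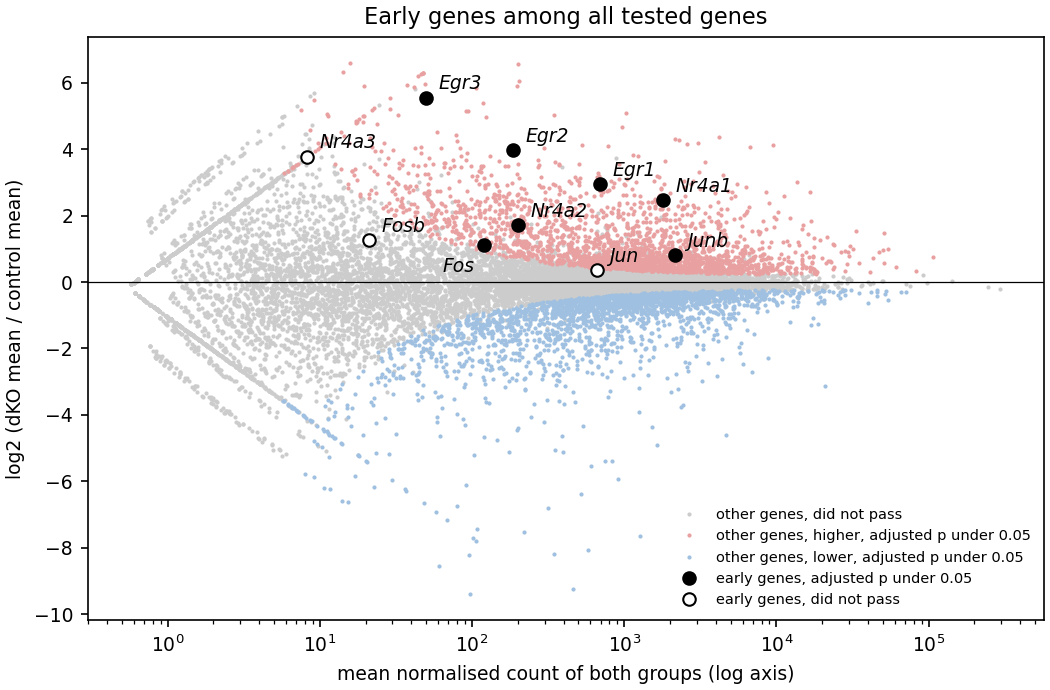
Log2 ratio of the dKO mean to the control mean against the mean of both groups on a log axis, for all tested genes with a level above the floor in either group; black points are the early genes that passed and open points those that did not. The members that did not pass are Nr4a3 and Fosb, with low means, and Jun, whose log2 ratio of 0.35 is close to 0.

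Edf1 and Tapbpl were among the called genes nearest to Junb in the group means, by the distance between log2 means of the dKO and control groups. Their distances were 0.038 and 0.040. The likeness rests on 2 group means for each gene and not on values per library.

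Close relatives of the members moved in both directions. Of 12 further Egr, AP-1 and Maf genes, there were 3 rises, 1 fall and 8 below the threshold, and the median log2 change was 0.54. Among all tested genes 15.1% were called higher and 13.8% lower, and at a mean of 100 to 1000 17.2% and 19.5%. Fosl2, which encodes the Fos protein Fra-2, was 3.61-fold higher with means of 493 in dKO and 137 in control in the authors' deposited table (authors' DESeq adjusted p = 4.56e-07). Batf, a partner of Jun proteins at sites shared with Irf4, had means of 573 in dKO and 292 in control in the authors' deposited table (authors' DESeq adjusted p = 2.07e-05). Batf3, a relative of Batf, had 40.7, 103 and 97.3 normalised counts in the dKO libraries, all above the 29.3, 22.1 and 27.9 of the control libraries. Mafk fell to a mean of 1201 in dKO, against 1552 in control, in the authors' deposited table (authors' DESeq adjusted p = 0.0262). Jund had means of 1092 in dKO and 260 in control in the authors' deposited table, 4.19-fold apart, and did not pass (authors' DESeq adjusted p = 0.0895). Egr4 had 5 reads in 1 dKO library and none elsewhere.

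The corepressors of Egr and Nr4a proteins were also measured. Nab2, which binds Egr proteins and is itself induced by them, had means of 1699 in dKO and 144 in control in the authors' deposited table, 11.8-fold higher in dKO (authors' DESeq adjusted p = 2.07e-06). Its relative Nab1 had means of 1106 in dKO and 682 in control in the authors' deposited table and also passed (authors' DESeq adjusted p = 0.00014). In all, 3 of 6 corepressor genes rose, with Ncor1 as the remaining one, and Cbfa2t3 fell to 2064 in dKO, against 2953 in control, in the authors' deposited table (authors' DESeq adjusted p = 0.000762). Rcor1 had means of 575 in dKO and 514 in control in the authors' deposited table, below the threshold. For all tested genes with a mean of 1000 or more, 25.1% were called higher and 18.8% lower, and at 100 to 1000 17.2% and 19.5%.

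Other immediate early genes moved in both directions. Of 38 tested, there were 17 rises, 5 falls and 16 below the threshold, and the median log2 change was 0.53. Over all tested genes 15.1% were called higher and 13.8% lower, and at a mean of 1000 or more 25.1% and 18.8%. Zfp36, an RNA-binding protein that destabilises cytokine transcripts, had means of 2661 in dKO and 724 in control in the authors' deposited table (authors' DESeq adjusted p = 3.42e-42). Klf6 was 2.61-fold and Rgs1 2.66-fold higher in dKO in the authors' deposited table. The Polo-like kinase genes Plk2 and Plk3 had larger ratios. Plk2 had 68.3, 114 and 107 normalised counts in the dKO libraries and 0.976, 0 and 3.64 in the control libraries. Plk3 was 11.5-fold higher in dKO in the authors' deposited table, with means of 686 in dKO and 59.7 in control.

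The early genes that fell were Myc, Sik1, Ier3, Dusp6 and Dusp1. Myc, a Notch target in these cells as well as an early gene, fell to 3451 in dKO, against 9311 in control, in the authors' deposited table (authors' DESeq adjusted p = 1.28e-41). Dusp6 and Dusp1, phosphatases that switch off MAP kinases, fell to 0.701 and 0.687 of control in the authors' deposited table. Ier2, an early gene that is not a transcription factor of these families, had means of 3295 in dKO and 2868 in control in the authors' deposited table, short of the threshold (authors' DESeq adjusted p = 0.193). Csrnp1 and Ier5 also did not pass. Atf3, an early gene of cell stress, had means of 3.91 in dKO and 3.01 in control in the authors' deposited table, short of the threshold.

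**Figure D4:**
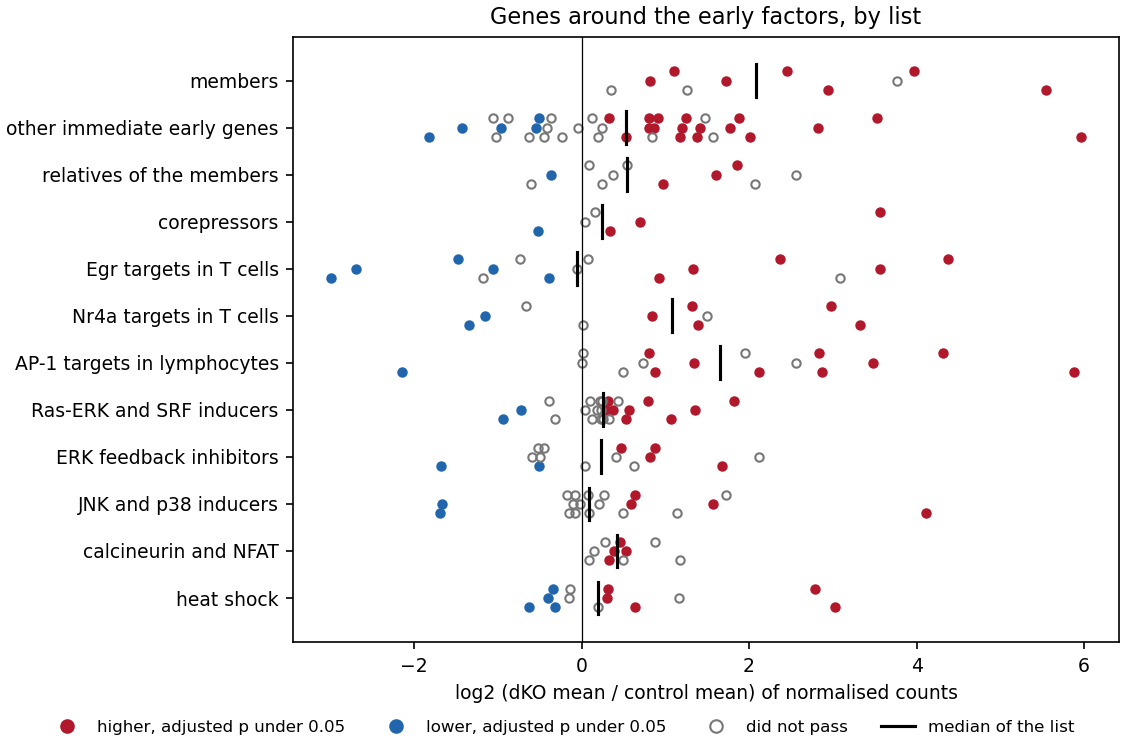
Log2 ratio of the dKO mean to the control mean for the genes of each list, with filled red points for called rises, filled blue points for called falls, open points for genes that did not pass, and a black line at the median of the list. The members have a median of 2.09, other immediate early genes 0.53 and heat shock genes 0.20, and genes with both groups at or under the floor are not drawn.

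Of the kinases and factors that induce early genes through ERK and serum response factor, 24 were tested. There were 9 rises, 2 falls and 13 below the threshold, and the median log2 change was 0.25. Among all tested genes with a mean of 1000 or more, 25.1% were called higher and 18.8% lower, and at 100 to 1000 17.2% and 19.5%. Rasgrp1, the exchange factor that activates Ras below the T cell receptor, was 3.53-fold higher with means of 7256 in dKO and 2056 in control in the authors' deposited table (authors' DESeq adjusted p = 1.45e-60). Rps6ka3, which encodes the ERK-activated kinase RSK2, was 2.56-fold and Rps6ka1 1.44-fold higher in the authors' deposited table. Elk3, an Ets partner of serum response factor that can repress, fell to 1064 in dKO, against 2029 in control, in the authors' deposited table, and Elk1 was the other gene that fell. Nras and Map2k2 did not pass.

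Feedback inhibitors of this cascade were mixed, with 4 of 14 higher, 2 lower and 8 that did not pass. Among all tested genes with a mean of 100 to 1000, 17.2% were called higher and 19.5% lower. At a mean of 1000 or more the shares were 25.1% and 18.8%. Rasa1, Rasa2 and Rasa3, which encode Ras GTPase activating proteins, rose, each by less than 2-fold. Spry2, an inhibitor induced by ERK, had 134, 180 and 122 normalised counts in the dKO libraries, all above the 68.3, 42.0 and 25.5 of the control libraries. Spred3 had 42.4, 7.44 and 33.7 normalised counts in the dKO libraries, all below the 92.7, 73.5 and 102 of the control libraries, and with Dusp6 made up the falls.

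In the JNK and p38 list, 4 of 19 genes rose, 2 fell and 13 did not pass. Among all tested genes with a mean of 1000 or more, 25.1% were called higher and 18.8% lower, and at 100 to 1000 17.2% and 19.5%. Gadd45g, an activator of the p38 and JNK pathways, was 17.2-fold higher with means of 1476 in dKO and 85.6 in control in the authors' deposited table (authors' DESeq adjusted p = 5.52e-95). Mef2c fell to 529 in dKO, against 1685 in control, in the authors' deposited table (authors' DESeq adjusted p = 9.3e-15). Of 10 calcineurin and NFAT genes tested, Nfatc3, Nfatc2, Ppp3r1 and Rcan3 rose and 6 did not pass, and all 10 had the higher mean in dKO. Their called rises were small, from 1.25-fold for Ppp3r1 to 1.44-fold for Rcan3 in the authors' deposited table.

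Known targets of the early factors were taken as lists from textbook T cell biology. Of 15 Egr targets, there were 5 rises, 5 falls and 5 below the threshold, and the median log2 change was -0.05. Over all tested genes 15.1% were called higher and 13.8% lower, and at a mean of 1000 or more 25.1% and 18.8%. Besides Nab2, the targets that rose were Tnfrsf9, Dgka, Crtam and Id3. Tnfrsf9, the costimulatory receptor 4-1BB, had means of 7991 in dKO and 386 in control in the authors' deposited table (authors' DESeq adjusted p = 1.36e-13). Id3 had 136, 114 and 100.2 normalised counts in the dKO libraries, all above the 49.8, 66.2 and 23.1 of the control libraries. Fasl, Cd5, Dgkz, Nrp1 and Ndrg1 were the targets that fell, with Cd5 at means of 38.9 in dKO and 310 in control in the authors' deposited table (authors' DESeq adjusted p = 5.79e-17). Lag3, an Egr2 target in T cells, had 25.9, 28.8 and 27.9 normalised counts in dKO and 44.9, 43.1 and 49.8 in control, without overlap, and missed the threshold (authors' DESeq adjusted p = 0.509 in the authors' deposited table).

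Of 10 Nr4a targets, there were 5 rises, 2 falls and 3 below the threshold, and the median log2 change was 1.08. The shares over all tested genes were 15.1% higher and 13.8% lower, and at a mean of 1000 or more 25.1% and 18.8%. The 5 were Pdcd1, Tox, Ikzf2, Tox2 and Bcl2l11. Pdcd1, the inhibitory receptor PD-1, had means of 5682 in dKO and 568 in control in the authors' deposited table, and Tox2 had 1512 in dKO and 192 in control. Runx1 and Nrgn were the targets that fell. Havcr2, Tigit and Foxp3 did not pass.

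Of 16 AP-1 targets, there were 9 rises, 1 fall and 6 below the threshold, and the median log2 change was 1.65. The shares over all tested genes were 15.1% higher and 13.8% lower. Il13 had 361, 290.2 and 306 normalised counts in the dKO libraries and 30.3, 27.3 and 27.9 in the control libraries. Il4 was 7.30-fold, Lif 19.9-fold and Vim 2.53-fold higher in dKO in the authors' deposited table. Ccnd1 fell to 72.5 in dKO, against 319 in control, in the authors' deposited table (authors' DESeq adjusted p = 8.13e-11). Il2, the cytokine gene most often used to read AP-1 and NFAT activity, had means of 21.3 in dKO and 21.3 in control in the authors' deposited table, short of the threshold.

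Heat shock genes moved in both directions. Some heat shock genes respond, like early genes, to cell stress and tissue handling. Of 13 tested, 5 rose, 4 fell and 4 did not pass. Among all tested genes with a mean of 1000 or more, 25.1% were called higher and 18.8% lower. The summed mean of the 13 was 251394 in dKO and 256756 in control. Hspa8 was 98426 of it in dKO and 85618 in control, and Hsp90ab1 63110.5 in dKO and 78295 in control. Hspa1a, an inducible heat shock gene, had 47.6, 58.6 and 109 normalised counts in the dKO libraries and 14.6, 10.5 and 6.07 in the control libraries. In the authors' deposited table it was 6.89-fold higher in dKO (authors' DESeq adjusted p = 0.00158). Hspa1b had 69.2, 145 and 223.5 normalised counts in dKO and 34.2, 15.8 and 3.64 in control. It was 8.17-fold higher in dKO in the authors' deposited table (authors' DESeq adjusted p = 0.00534). Reads could be solved for only 3 heat shock genes, and in each every dKO library was above every control library. Besides Hspa1a and Hspa1b this was Hspb1, which was close to the floor. In the authors' deposited table Hspb1 had means of 2.73 in dKO and 0 in control, and it was not called. The heat shock genes left unsolved include all 4 that fell, so this order of libraries does not describe the list. Among all decided genes with a mean of at most 400 in each group, 12.1% had the same order. For Hspa1b the dKO library of size factor 1.04 was the highest and that of 1.16 the lowest. The part of these genes in the result was not tested.

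Transcripts of cell type markers also differed between the groups. Kit had means of 19067 in dKO and 14094 in control and Cd44 2765 in dKO and 3220 in control in the authors' deposited table, while 8 of 13 markers of early progenitors fell and 4 rose. Il2ra, whose product CD25 was gated out, had means of 8536 in dKO and 8417 in control in the authors' deposited table, so its transcript was present in both groups. Of 10 markers of group 2 innate lymphoid cells, 7 rose and all 10 had the higher mean in dKO. Il1rl1, Il5 and Areg did not pass. Their summed mean over the 10 was 65083 in dKO and 16293 in control. Icos was 28812 of it in dKO and 4367 in control, and Gata3 22961 in dKO and 7051 in control. At a mean of 1000 or more, 25.1% of all tested genes were called higher and 18.8% lower, and at 100 to 1000 17.2% and 19.5%. The summed mean of 12 myeloid and dendritic genes present in the table was 2779 in dKO and 10105 in control, with Cd14 and Siglech at 0 in both groups. Mpo was 1457 of it in dKO and 7310 in control. Of the 10 tested, 6 fell, 3 did not pass and 1 rose. The riser was Emr1, with means of 278 in dKO and 53.3 in control in the authors' deposited table (authors' DESeq adjusted p = 5.75e-05). The summed mean of 8 B lineage genes was 1088 in dKO and 1279 in control, with Pax5 and Ms4a1 at 0 in both groups. That of 9 erythroid genes was 149 in dKO and 1233 in control, with Hba-a1, Hba-a2, Hbb-b1 and Hbb-b2 at 0 in both groups and Beta-s at 12.3 in dKO and 1032 in control in the authors' deposited table. That of 12 epithelial and stromal genes was 4685 in dKO and 12363 in control, with Pdgfra and Cdh5 at 0 in both groups. In the authors' deposited table Pdgfrb was 2152 of it in dKO and 9430 in control, and Pecam1 2063 in dKO and 2639 in control. These were the 2 called lower of the 10 tested, and 8 did not pass. Of the 10, 6 had the higher mean in dKO, and the median log2 change was 0.63. In such bulk samples a different share of cells of a type and a different amount of RNA per cell cannot be told apart, and the part of these markers in the early gene values was not tested. The targeted genes were lower in dKO, with Tcf3 at 364 in dKO and 8931 in control and Tcf12 at 562 in dKO and 3845 in control in the authors' deposited table.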

How the data were processed

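Values came from 1 series table, the authors' comparison of 3 dKO with 3 control libraries. Per the labels' protocols, RNA from sorted cells was amplified with a low-input SMARTer kit, so reads are not independent molecules, and floors cover counting error only. Build mm9 and the tools bcl2fastq 1.8.4, TopHat2 2.0.14 and DESeq (version 2) appear, with no role, in the submitters' processing notes. Which gene counter and annotation were used is not given in the sources used here. Per the file headers, the signal columns are each group's mean normalised count, the fold column is the ratio of dKO to control, and 2 columns hold the p-value of the authors' test and its adjusted form. The deposited log2 column was set aside for log2 ratios of the means.

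The members and lists were chosen with earlier results of these data known. A gene was called at the authors' adjusted p under 0.05, which is Benjamini-Hochberg over 16241 genes. Where a group was at 0, a floor of 3 reads stood in its place (mean 0.963 in dKO, 1.21 in control). Intervals divide the log2 change by the z value of the authors' p. Size factors were fitted to the low means (Python 3.11.15, numpy 2.4.6, scipy 1.17.1), and reads per library were all whole-number solutions within the rounding of a mean. All 5316 dKO and 5230 control means up to 100 had 1 solution. Between 100 and 400, 89.4% of dKO and 26.1% of control means had 1 solution. In 480 simulated means the true reads were always among the solutions. Named genes were the members and, per list, up to 4 called genes of smallest adjusted p, the 3 most abundant genes below the threshold and any gene of a count of 5 or fewer, with the 3 called genes nearest to Junb. Plk2, Plk3, Atf3, Egr4 and the markers at 0 were chosen after their values were seen. A few genes within this rule are left unreported. Alternatives changed the threshold, the adjustment, the scaling, the pseudocount or left out a library.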

Additional observations from a re-analysis of the deposited data

How the results depend on the processing

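With Holm adjustment over all tested genes 2 members passed, Egr1 and Junb, against 7 with the Benjamini-Hochberg adjustment, and 975 of all tested genes were called higher, against 2460. Under it Egr2 (log2 change 3.96), Egr3 (5.55), Nr4a1 (2.46), Nr4a2 (1.72) and Fos (1.11) no longer passed, since that adjustment is stricter by construction. At an adjusted p under 0.01, 5 members were called higher, with 1898 of all tested genes. At an adjusted p under 0.1 there were 7, with 2819, and with adjustment over genes with a mean of at least 10 also 7, with 2543. With a fold of at least 2 there were 6, with 1114. No member was called lower under these settings. The direction of all 10 members was kept with equal totals, which shifts log2 changes by 0.082, with centring on the median of genes with a mean of at least 100, which shifts them by 0.006, and with pseudocounts of 1 and 10. At an adjusted p under 0.01 the Ras, ERK and serum response factor list had 4 rises and 1 fall, the Egr targets 3 rises, the calcineurin and NFAT list 1 rise and the relatives 0 falls. Leaving out 1 library in turn gave log2 changes of 0.95 to 4.33 for Nr4a3, a lower bound that rests on the dKO library of size factor 1.16. Fosb ranged from 1.53-fold to 3.58-fold higher without single libraries. Jun changed direction under some solutions of its reads, from 0.885-fold to 3.47-fold without single control libraries. It was 1.2-fold higher under all 3 solutions without the dKO library of size factor 1.04. Egr1, Nr4a1 and Junb were not recomputed without single dKO libraries, nor was Junb without single control libraries, because their reads had many solutions. No paired analysis was possible because the table holds group means and no column carries a replicate number. At this depth Nr4a3 and Egr4 had 0 reads in control, so no fold but a bound could be given for Nr4a3.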
